A study of Mus musculus with 6 samples.

Results

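Sox5, Sox6 and Sox9, the chondrogenic Sox trio, are 3 transcription factor genes taken by name from the 24346 gene names measured in newborn mouse calvaria, the roof of the skull. The tissue took in the interparietal and occipital bones and left out ear cartilage. The design sets 3 libraries labelled mutant, with the genotype Prx1-Cre;Pth1rfl/fl, against 3 Flox_control libraries of the genotype Pth1rfl/fl, so floxed alleles of Pth1r were present in both groups. Pth1r encodes a G protein-coupled receptor for parathyroid hormone and its relative PTHrP. Prx1-Cre drives recombination in limb and skull mesenchyme, and not in every cell of the dissected tissue. Messenger RNA of the homogenised tissue was sequenced, and the values are FPKM. That is a fragment count divided by transcript length and by a scale for the library, in its plain form the mapped total. The scale used for these values is not given in the sources used here. The series title names the question, which is how this receptor bears on skull cartilage and the forming sutures.

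In cartilage, SOX9 is the transcription factor that chondrocytes need in order to form and to stay chondrocytes, and it switches on the genes of the cartilage matrix. SOX5 and SOX6 are close relatives of each other that lack an activation domain of their own and are known to strengthen the action of SOX9 at the same genes. Col2a1, which encodes the main collagen of cartilage, is the classic shared target. All Sox proteins bind DNA through an HMG box, which recognises a short core, ACAAT or its reverse complement ATTGT. The trio also acts outside cartilage, Sox9 in glia, hair follicles and the inner ear, Sox6 in muscle and red cell precursors, and Sox5 in the nervous system, so a value for whole calvaria sums over all the cells present.

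Sox9 lies on chromosome 11 at 112782224 to 112787760 on the plus strand of GRCm38 (GENCODE M21), the assembly that mm10 denotes, and no other annotated gene overlaps it. Sox5 is spread over chromosome 6 from 143828425 to 144781977 and Sox6 over chromosome 7 from 115470872 to 116038796, both on the minus strand. Antisense genes overlap Sox5 and Sox6. Of these, Sox5os3 is the 1 named in the files, and it is listed at 0 in all 6 libraries. The use of strand in the authors' counting is not stated in the sources used here, and antisense reads cannot be told apart from those of Sox5 and Sox6.

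RefSeq promoter windows on GRCm38.p6 were read for the SOX core on both strands, since the trio and its targets are linked by it. Sox5 matched 1 window and Sox6 matched 6, and Sox9 and Col2a1 matched none. A core was present in 3 of the 6 Sox6 windows, in the Sox5 window, and in 31.0% of all 32851 windows of 300 bases. Among the cartilage target genes described further on, 15 had windows, 19 in all, and 2 of these held a core. The 250 bases before the start are printed for Sox5, at chr6:143947107-143947356, and for Matn1, 1 of the targets that fell, at chr4:130944135-130944384. They run 5′ to 3′ on the minus strand for Sox5 and on the plus strand for Matn1, with the SOX core in capitals.
Sox5: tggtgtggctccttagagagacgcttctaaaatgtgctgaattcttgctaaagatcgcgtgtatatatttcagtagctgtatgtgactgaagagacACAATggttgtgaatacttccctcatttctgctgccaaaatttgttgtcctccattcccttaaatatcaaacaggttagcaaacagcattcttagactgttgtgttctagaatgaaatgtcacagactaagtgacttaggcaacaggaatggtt
Matn1: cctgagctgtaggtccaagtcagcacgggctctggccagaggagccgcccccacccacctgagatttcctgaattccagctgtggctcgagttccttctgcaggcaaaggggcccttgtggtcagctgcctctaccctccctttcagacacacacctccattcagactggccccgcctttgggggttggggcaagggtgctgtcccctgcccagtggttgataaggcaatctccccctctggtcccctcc
The Sox5 window holds 1 core, which begins 154 bases before the start, and that start lies inside the annotated span of the gene. The Matn1 window holds 0 such cores. These are matches of letters, and neither binding nor its absence was measured.

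No source used here gives read totals, and the absolute depth of each library is therefore unknown. With control 1 set to 1, steps among the smallest FPKM values gave a relative depth of 0.972, 0.778 and 0.703 in libraries 1 to 3 labelled mutant, against 0.845 in control 2 and 0.914 in control 3. The targeted gene, Pth1r, had no lower value in any library labelled mutant, at 127, 125 and 142 FPKM against 89.2, 93.3 and 102 FPKM in controls. Which exons the floxed alleles remove is not given in the sources used here. Each direction below is therefore that of the labels alone. The tissue carried both of its marker sets. Summed chondrocyte markers were at 273 to 376 FPKM in libraries labelled mutant against 609 to 1364 FPKM in controls. Summed osteoblast markers were at 11451 to 15773 FPKM in libraries labelled mutant against 10838 to 12503 FPKM in controls. Col2a1 was the largest part of the first sum and Col1a1 of the second. By mean, Comp and Bglap went the other way from the rest of their sets, with ratios of 1.23 and 0.381. Control 3 held the least chondrocyte marker expression of the controls. Control 2 had far higher values of some inner ear markers, such as Oc90, than the other libraries, as given further on. Nothing in the labels says whether libraries came from separate animals, so the p-values measure the spread between these libraries.

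Sox9 had lower values in every library labelled mutant. Its level was 4.49, 3.30 and 3.60 FPKM in libraries 1 to 3 labelled mutant, against 6.11, 7.87 and 5.30 FPKM in controls 1 to 3. The highest library labelled mutant lay below the lowest control, so the groups did not overlap. The means were 3.80 ± 0.62 FPKM in libraries labelled mutant and 6.42 ± 1.32 FPKM in controls (SD, n = 3 each), a ratio of 0.592. On the log2(FPKM + 1) scale the difference was -0.62 ± 0.15 (SE; 95% interval -0.97 to -0.27). It did not pass the threshold of 0.05 when adjusted over all 13180 tested genes (limma, Benjamini-Hochberg adjusted p = 0.178, unadjusted p = 0.00414). Exact permutation of the group means gave a two-sided p of 0.1, the smallest that 3 libraries against 3 allow. Groups that do not overlap with the libraries labelled mutant lower were found for 6.79% of all tested genes, so the separation is not rare in these data. In size, 1.02% of tested genes had a lower log2 change than Sox9.

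Sox5 did not separate the groups. It had 1.46, 1.59 and 1.504 FPKM in libraries 1 to 3 labelled mutant, against 1.93, 2.05 and 1.29 FPKM in controls 1 to 3. Controls 1 and 2 lay above all libraries labelled mutant, and control 3 lay below them all. The means were 1.52 ± 0.066 FPKM in libraries labelled mutant and 1.76 ± 0.41 FPKM in controls (SD, n = 3 each). The log2 change, -0.12 ± 0.13 (SE), fell short of the threshold (limma, Benjamini-Hochberg adjusted p = 0.844), and its 95% interval ran from -0.43 to 0.20. The exact permutation test, two-sided, gave p = 0.4.

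Sox6 had nearly the same level in both groups. It had 4.37, 3.85 and 4.74 FPKM in libraries 1 to 3 labelled mutant, against 4.40, 4.12 and 4.12 FPKM in controls 1 to 3. Both the highest and the lowest value belonged to libraries labelled mutant. The means were 4.32 ± 0.45 FPKM in libraries labelled mutant and 4.21 ± 0.16 FPKM in controls (SD, n = 3 each). The log2 change, 0.03 ± 0.09 (SE), fell short of the threshold (limma, Benjamini-Hochberg adjusted p = 0.956), and its 95% interval ran from -0.18 to 0.23. With 3 libraries in each group, that interval does not show that Sox6 was unchanged. The exact permutation test, two-sided, gave p = 0.8. None of the 3 genes passed the threshold, where 0.607% of all tested genes did in either direction, and at an unadjusted limma p of 0.05 the count was 1 of 3, against 10.5% of all tested genes.

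**Figure D1:**
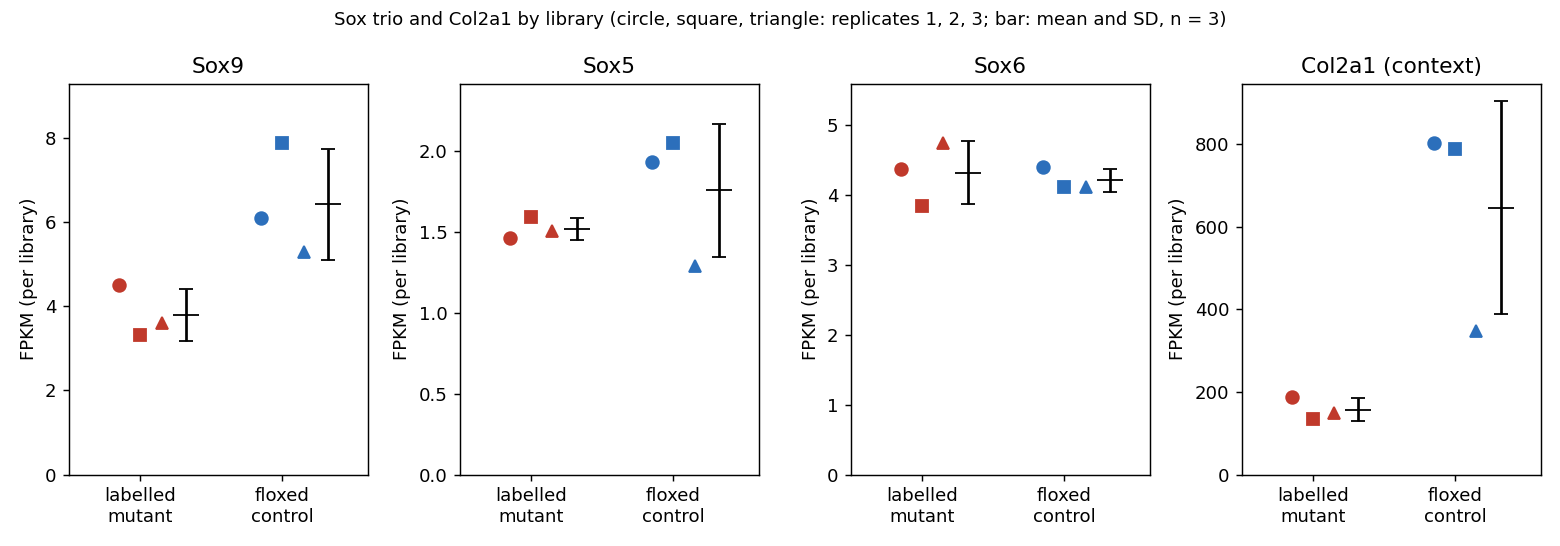
FPKM of Sox9, Sox5, Sox6 and Col2a1 in each library, with libraries labelled mutant in red and controls in blue, and the mean and SD of 3 libraries as black bars; each panel has its own axis from 0. Sox9 and Col2a1 groups do not overlap, Sox5 of control 3 lies below the libraries labelled mutant at 1.29 FPKM, and Sox6 values of both groups lie between 3.85 and 4.74 FPKM.

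All 3 genes were modest in level for whole tissue. Per length, the order in controls was Sox9 above Sox6 above Sox5 in each library. In libraries labelled mutant Sox5 was again the lowest in each library, while Sox9 and Sox6 changed places, Sox9 being the higher in library 1 and Sox6 in libraries 2 and 3. By mean over the 6 libraries, 29.5% of tested genes had a lower level than Sox9, 24.9% a lower level than Sox6 and 6.77% a lower level than Sox5. Col2a1 lay above 98.7% of tested genes.

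Sox9 made up less of the trio in every library labelled mutant than in any control. Sox9 gave 43.5%, 37.8% and 36.6% of the summed trio FPKM in libraries 1 to 3 labelled mutant, against 49.1%, 56.1% and 49.5% in controls 1 to 3. The ratio of Sox9 to Sox6 was 1.03, 0.859 and 0.760 in libraries labelled mutant, against 1.39, 1.91 and 1.29 in controls, without overlap. On the log2 scale the change of Sox9 lay below that of Sox6 by a difference of -0.65 and below that of Sox5 by a difference of -0.50. Exact permutation tests of these differences, two-sided, each gave p = 0.1, the smallest possible, and an adjusted p of 0.15 over the 3 pairs of members. Sox5 and Sox6 differed by -0.15 in their changes (exact permutation p = 0.4, adjusted p = 0.4). No pair could have passed 0.05 in this design.

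Set beside Col2a1 in the same library, each member had the smaller difference between groups. Col2a1 had 188, 135 and 149 FPKM in libraries 1 to 3 labelled mutant, against 802, 788 and 348 FPKM in controls 1 to 3, and its log2 change was -1.95 ± 0.32 (SE; limma, Benjamini-Hochberg adjusted p = 0.0638). There were 41.9, 40.8 and 41.5 FPKM of Col2a1 for each FPKM of Sox9 in libraries labelled mutant, against 131, 100.1 and 65.8 in controls. The means were 41.4 ± 0.53 in libraries labelled mutant and 99.1 ± 32.8 in controls (SD, n = 3 each). Control 3, with the lowest Col2a1 of the controls, also had the lowest Sox9 and Sox5 of the controls. Library 2 labelled mutant had both the lowest Col2a1 and the lowest Sox9 of all libraries.

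The same ratio for Sox5 was 129, 84.7 and 99.4 in libraries labelled mutant against 415, 384 and 270 in controls. For Sox6 it was 43.0, 35.0 and 31.5 in libraries labelled mutant against 182, 191 and 84.6 in controls. All 3 ratios were lower in every library labelled mutant than in any control. On the log2 scale the change of a member exceeded that of Col2a1 by 1.32 for Sox9, 1.83 for Sox5 and 1.97 for Sox6. Each difference gave an exact permutation p of 0.1, two-sided, the smallest possible, and an adjusted p of 0.1 over the 3 tests. In bulk tissue, fewer chondrocytes and less RNA of a gene per chondrocyte cannot be told apart.

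**Figure D2:**
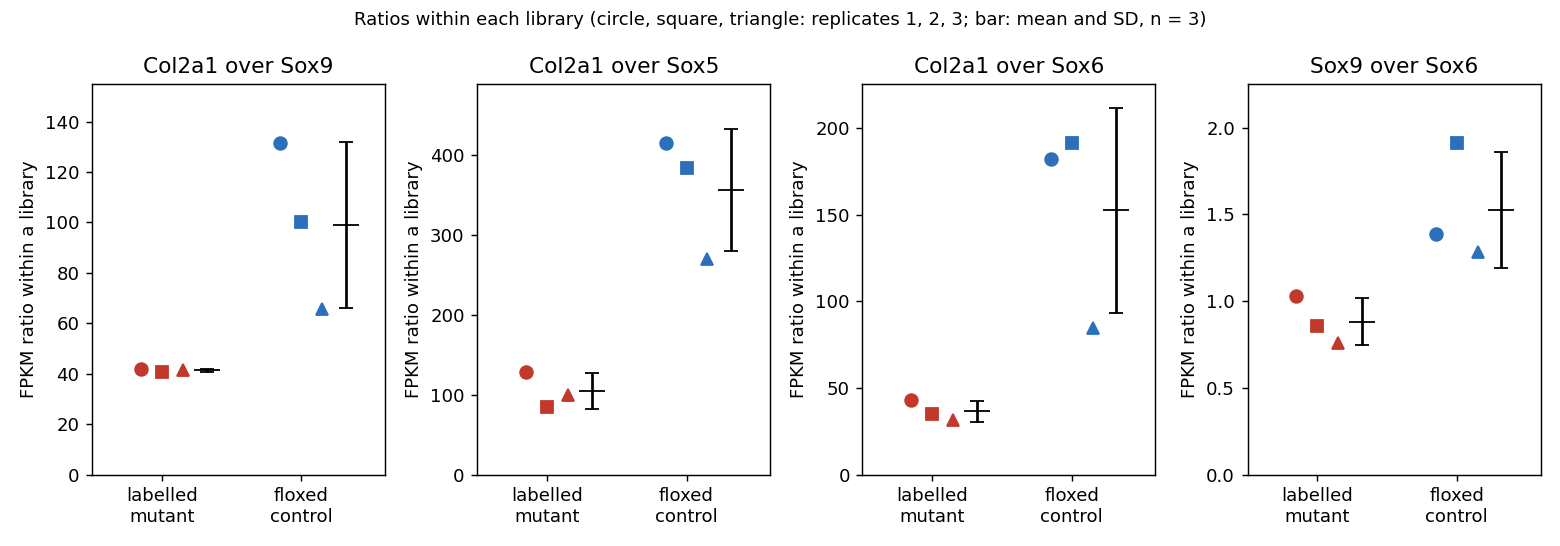
Ratios of FPKM within each library, with libraries labelled mutant in red and controls in blue, and the mean and SD of 3 libraries as black bars; each panel has its own axis from 0. Col2a1 over Sox9 lies between 40.8 and 41.9 in libraries labelled mutant and between 65.8 and 131 in controls, and Sox9 over Sox6 is lower in each library labelled mutant than in any control.

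Among the closest relatives, the members of the SoxE group to which Sox9 belongs had lower means, and those of the SoxD group of Sox5 and Sox6 were close to level. Sox10, a SoxE factor of neural crest, glia and the inner ear, had 2.11, 2.13 and 1.36 FPKM in libraries labelled mutant, against 2.95, 6.09 and 4.36 FPKM in controls, also without overlap. Its log2 change was -0.90 ± 0.22 (SE; limma, Benjamini-Hochberg adjusted p = 0.195). Sox8, the third SoxE gene, which overlaps an antisense gene, had 2.07, 2.82 and 2.25 FPKM in libraries labelled mutant against 3.44, 3.75 and 2.67 FPKM in controls, and library 2 labelled mutant lay above control 3. Sox13, the third SoxD gene, had 7.41 ± 0.60 FPKM in libraries labelled mutant and 7.47 ± 0.56 FPKM in controls (SD, n = 3 each).

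Across the 19 Sox genes looked up, 12 had a mean of at least 1 FPKM and were tested, and 0 passed in limma with Benjamini-Hochberg adjustment. At an unadjusted p of 0.05 the count was 3, namely Sox8, Sox9 and Sox10, where 10.5% of all tested genes reached it. The median log2 change of the 12 was -0.07, beside 0.00 for all tested genes. The 6 tested Sox genes of other groups overlapped between the groups. Sox18, an endothelial factor and the highest of all Sox genes here, had 30.1 ± 3.94 FPKM in libraries labelled mutant and 25.2 ± 3.38 FPKM in controls, and Sox4, a factor of progenitor cells, had 19.9 ± 1.01 FPKM in libraries labelled mutant and 22.2 ± 2.98 FPKM in controls (SD, n = 3 each). Sox12 had 9.75 ± 0.28 FPKM in libraries labelled mutant and 11.3 ± 1.35 FPKM in controls, and Sox7 and Sox17, both endothelial, had ratios of 1.10 and 1.04. Sox11 ranged from 2.05 to 5.53 FPKM in libraries labelled mutant, a range that took in all 3 controls. Of the 12 tested Sox genes, Sox9 and Sox10 were the 2 whose groups did not overlap. That count is close to the share over all tested genes, of which 16.1% had groups that did not overlap in either direction.

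Among known cartilage targets of the trio, which chondrocytes use to build matrix, most had lower values in the libraries labelled mutant. Of 19 such genes, all tested, 4 fell and 0 rose in limma with Benjamini-Hochberg adjustment, beside 0.0835% of all tested genes that fell and 0.524% that rose. Values were lower in the libraries labelled mutant for 18 of the 19, as for 49.5% of all tested genes, and the median log2 change was -0.94, beside 0.00 for all tested genes. Groups did not overlap in 12, all lower in the libraries labelled mutant, as in 6.79% of all tested genes. The 4 that fell were Matn1, Ucma, Col9a3 and Lect1, the older symbol of Cnmd, with log2 changes of -3.50, -3.22, -2.50 and -2.03. Matn1 had 17.4, 9.36 and 16.2 FPKM in libraries labelled mutant, against 236, 228 and 85.7 FPKM in controls.

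The calls depended on single libraries. Their number was 0 without library 1 labelled mutant, without control 1 or without control 2, 1 without library 2 or 3 labelled mutant, and 7 without control 3. At an unadjusted p of 0.05 it was between 12 and 16 in those fits, and 13 with all libraries. The list was written with earlier results of these data known.

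The other chains of collagen IX followed Col2a1 closely in size. Col9a1 had 30.6, 20.9 and 24.0 FPKM in libraries labelled mutant against 146, 147 and 60.4 FPKM in controls, and Col9a2 had 65.2, 48.0 and 57.5 FPKM in libraries labelled mutant against 241, 271 and 120.2 FPKM in controls, with limma adjusted p of 0.061 and 0.0614 (Benjamini-Hochberg). A second tier lay nearer to the change of Sox9. Matn3 had 3.07 ± 0.52 FPKM in libraries labelled mutant and 8.15 ± 3.20 FPKM in controls (SD, n = 3 each), a ratio of 0.377. Matn4, a matrilin, had 64.1 ± 11.4 FPKM in libraries labelled mutant and 123 ± 16.0 FPKM in controls, and Mia, a small secreted cartilage protein, had 35.8 ± 8.39 FPKM in libraries labelled mutant and 73.7 ± 20.5 FPKM in controls (SD, n = 3 each). Snorc, a chondrocyte membrane proteoglycan listed in the files under the older symbol 3110079O15Rik, had 75.8 ± 10.8 FPKM in libraries labelled mutant and 129 ± 34.1 FPKM in controls (SD, n = 3 each), a ratio of 0.587. Acan, the gene of aggrecan, had a ratio of 0.669 and Hapln1, the gene of its link protein, a ratio of 0.668. Neither passed in limma with Benjamini-Hochberg adjustment.

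Other known targets were nearer to level or higher. Col11a1, Fgfr3 and Papss2 had ratios of 0.906, 0.880 and 0.918, with groups that overlapped. Col27a1 and Col11a2 were lower by mean, with ratios of 0.802 and 0.775, and their groups overlapped too. For Col11a2 the unadjusted limma p was 0.0404, and the Benjamini-Hochberg adjusted p was 0.436. Comp, a cartilage and tendon matrix protein, was the 1 target with higher values, at 40.7 ± 6.57 FPKM in libraries labelled mutant and 33.1 ± 8.11 FPKM in controls (SD, n = 3 each), without passing.

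**Figure D3:**
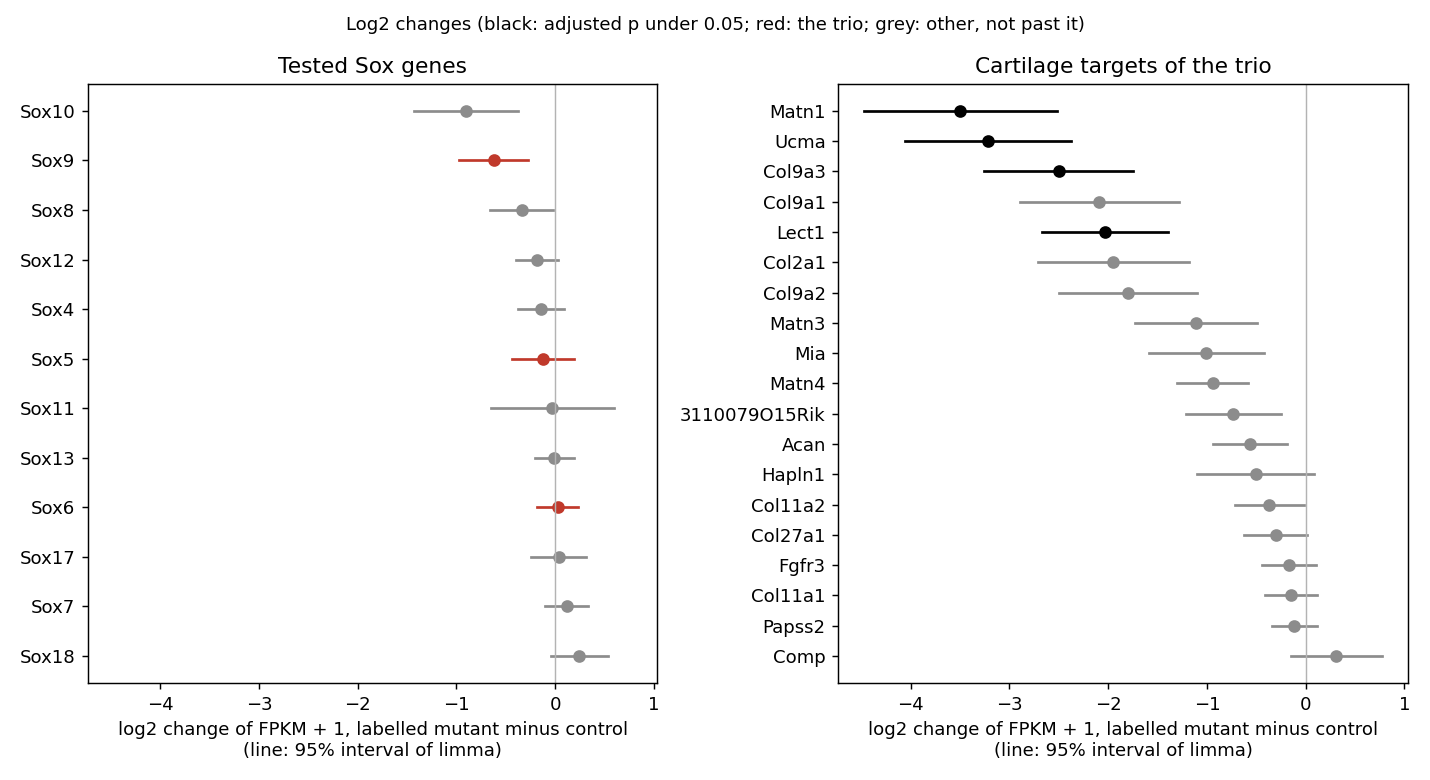
Log2 changes of FPKM + 1, labelled mutant minus control, with limma's 95% interval, for the 12 tested Sox genes (left) and 19 cartilage targets (right); black marks an adjusted p under 0.05, red the trio and grey the rest. Sox9 lies at -0.62 and Sox10 at -0.90 with intervals below 0, Sox5 and Sox6 straddle 0, and 18 of 19 targets lie below 0.

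Other regulators that act with or beside the trio in cartilage showed no shared direction. Of 21 listed, 16 were tested, and 0 passed in limma with Benjamini-Hochberg adjustment, where 0.607% of all tested genes did. At an unadjusted limma p under 0.05 the count was 3, where 10.5% of all tested genes reached it. Values were lower for 6 and higher for 10, with a median log2 change of 0.03, and 49.5% of all tested genes had lower values. Wwp2, which hosts the cartilage microRNA miR-140 and is itself a target of SOX9, had 29.9, 26.3 and 35.7 FPKM in libraries labelled mutant, against 53.4, 60.8 and 43.3 FPKM in controls. Its groups did not overlap, with the libraries labelled mutant lower, as for 6.79% of all tested genes. Its ratio of 0.584 was close to that of Sox9, and its Benjamini-Hochberg adjusted p in limma was 0.106. Scx, a tendon and enthesis factor that acts with Sox9 in progenitors, had 14.8 ± 2.62 FPKM in libraries labelled mutant and 20.8 ± 4.91 FPKM in controls. Runx2, the osteoblast and hypertrophic chondrocyte factor, had 36.0 ± 5.32 FPKM in libraries labelled mutant and 29.7 ± 0.87 FPKM in controls (SD, n = 3 each). The coactivator genes Ep300, Crebbp, Med12 and Med25 had ratios of 1.03, 1.06, 1.00 and 0.996. Nkx3-2, a repressor that works with Sox9 in early cartilage, was too low to test, at 0.349, 0.109 and 0.0603 FPKM in libraries labelled mutant against 0.382, 0.552 and 0.371 FPKM in controls.

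For each member, the genes most alike across the 6 libraries were those with the smallest root mean square difference between log2(FPKM + 1) profiles centred on their own means. For Sox9 these were Igfbp2, G0s2, Crtac1, Nxph4 and Ddr1, at differences of 0.053, 0.102, 0.106, 0.116 and 0.127. Igfbp2, which encodes a carrier of insulin-like growth factors, had 439, 324 and 356 FPKM in libraries labelled mutant against 562, 635 and 487 FPKM in controls, so that it ranked the libraries as Sox9 did. It was the 1 gene within 0.1 of Sox9. For Sox5 the nearest were Cldn5, Btbd11, Pmm1, Hdgfrp2 and Pex6, and 370 genes lay within 0.1. For Sox6 they were Tacc3, Elp4, Wsb1, Nek8 and Invs, and 3782 genes lay within 0.1, as can be so for any gene that hardly varies. The members were not each other's nearest genes, with a difference of 0.291 between Sox9 and Sox5, 0.372 between Sox9 and Sox6 and 0.167 between Sox5 and Sox6. Col2a1 stood 0.728 from Sox9, farther than nearly all tested genes, since its swings were larger.

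**Figure D4:**
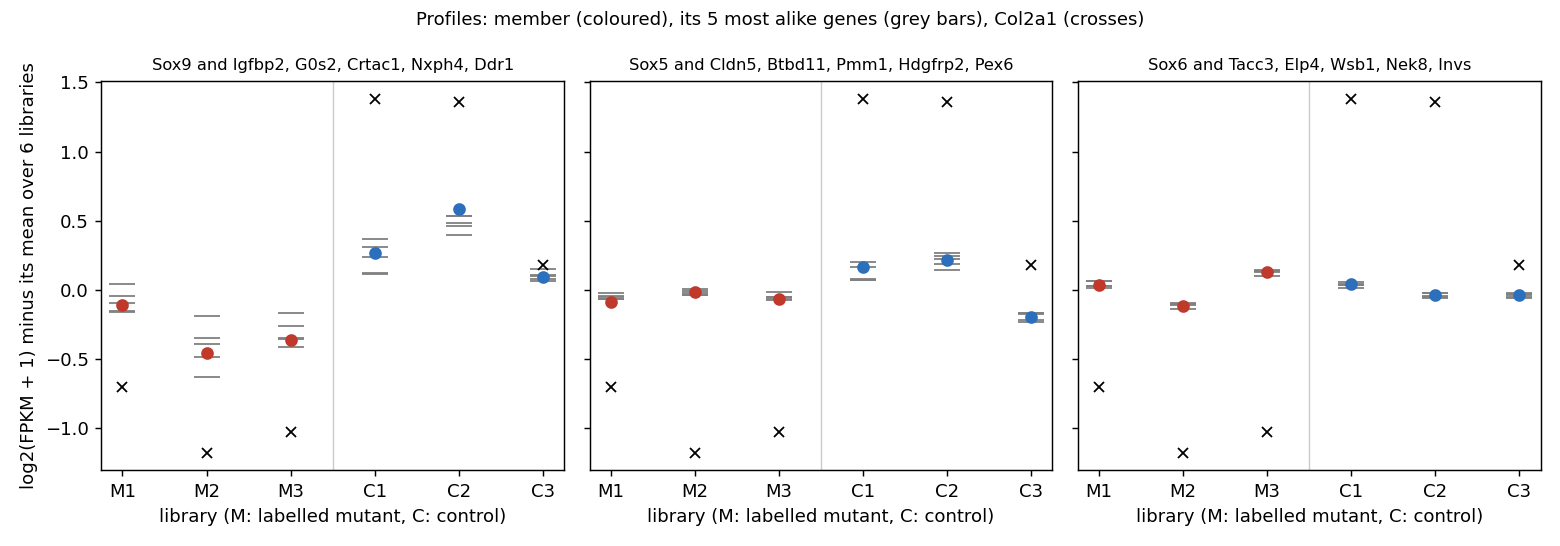
Log2(FPKM + 1) minus its mean over the 6 libraries, for Sox9, Sox5 and Sox6 (coloured circles), the 5 tested genes most like each (grey bars) and Col2a1 (crosses), in libraries 1 to 3 labelled mutant (M) and controls 1 to 3 (C). Igfbp2 and the other 4 genes track Sox9 with differences of 0.053 to 0.127, while Col2a1 swings further than any member.

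Several cell types other than chondrocytes express a member, and their marker levels stand beside these values. Of 12 inner ear markers, 3 were tested and 0 passed in limma with Benjamini-Hochberg adjustment (0 at an unadjusted p under 0.05), and Pou4f3 was at 0 in all libraries. Values of all 3 tested genes were lower in every library labelled mutant than in any control, as for 6.79% of all tested genes. Oc90 averaged 0.129 FPKM in libraries labelled mutant and 19.3 FPKM in controls, so it was tested only through the controls. The inner ear markers that were not tested all overlapped between the groups. The count of 3 is therefore a selected one and no support for a lower level of the set. The sum of all 12 was 1.94 to 4.57 FPKM in libraries labelled mutant and 5.50, 89.9 and 5.96 FPKM in controls 1 to 3, mostly through Oc90 at 56.6 FPKM and Otor at 22.5 FPKM in control 2. Coch, Otoa and Atoh1 were also highest in control 2, and Otos, Tecta, Tectb, Otog, Otogl and Strc were not. Control 2 also had the highest Sox9 and Sox10 of all libraries. Without control 2, Sox9 had 4.49, 3.30 and 3.60 FPKM in libraries labelled mutant against 6.11 and 5.30 FPKM in controls. Groups that do not overlap with all libraries cannot overlap when one is left out. The log2 change of Sox9 was then -0.49 (limma, Benjamini-Hochberg adjusted p = 0.338). Skin and hair follicle markers were 7 in all, with 4 tested and 0 called by limma. The unadjusted limma p was under 0.05 for 1, Lor, where 10.5% of all tested genes reached it. Lor averaged 0.655 FPKM in libraries labelled mutant and 1.63 FPKM in controls, and Krt15 averaged 0.763 and 1.40 FPKM. Both were thus tested only through the controls, which favours a lower value in the libraries labelled mutant. The 7 markers summed to 3.16 to 5.47 FPKM in libraries labelled mutant and 5.66 to 7.85 FPKM in controls. Like Sox9, that sum was lower in every library labelled mutant than in any control, though the order within each group differed. Krt5 and Krt14, too low to test, had higher means in libraries labelled mutant. The part of skin in the result was not tested. The most abundant of the skin markers were Krt10, at 1.14 to 1.53 FPKM in libraries labelled mutant against 1.79 to 1.90 FPKM in controls, and Trp63.

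Neural and glial markers were 10 in all, with 8 tested and 0 called by limma. The unadjusted limma p was under 0.05 for 1, where 10.5% of all tested genes reached it. The 10 markers summed to 22.6 to 87.7 FPKM in libraries labelled mutant and 51.8 to 56.0 FPKM in controls. The most abundant was Tubb3, highest at 59.2 FPKM in library 2 labelled mutant, the library with the lowest Sox9. Slc1a3, which astroglia and related cells express, had 4.45, 4.62 and 5.15 FPKM in libraries labelled mutant against 5.68, 7.32 and 6.32 FPKM in controls. Skeletal muscle markers, 9 in all with 8 tested, summed to 6957 to 11706 FPKM in libraries labelled mutant and 8233 to 13487 FPKM in controls, led by Acta1 and Tnnt3, with 0 called by limma (unadjusted p under 0.05 for 0). Of 8 red cell markers 7 were matched and 6 tested, with 0 called by limma (unadjusted p under 0.05 for 0). Their sum, led by Hba-a1 and Hbb-bs, was 11949, 10255 and 2701 FPKM in libraries labelled mutant and 4848 to 6913 FPKM in controls. Library 3 labelled mutant, with the lowest of these sums, had the highest Sox6 of all libraries. Epor went the other way from the sum, being highest in that library at 3.56 FPKM, and Klf1 was not lowest there. The part of red cells in Sox6 was not tested. Of 7 osteoblast markers, Ibsp rose and the others did not pass (unadjusted p under 0.05 for 5, where 10.5% of all tested genes reached it). Bglap, an osteocalcin gene whose reads are uncertain because it has near-identical copies, went the other way without passing, at 47.4, 82.8 and 64.3 FPKM in libraries labelled mutant against 106, 140.3 and 264 FPKM in controls. Col1a1, the most abundant, had a log2 change of 0.05 (limma, Benjamini-Hochberg adjusted p = 0.952).

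Depth and sex were also set beside Sox9. The libraries with the lowest relative depth, 2 and 3 labelled mutant, had the lowest Sox9, and the part of depth in the result was not tested. By Xist and Y-linked genes, library 1 labelled mutant and controls 1 and 3 read as female, and libraries 2 and 3 labelled mutant and control 2 as male. Among the females Sox9 was 4.49 FPKM in the library labelled mutant against 6.11 and 5.30 FPKM in controls. Among the males it was 3.30 and 3.60 FPKM in libraries labelled mutant against 7.87 FPKM in the control. Every library labelled mutant lay below every control, so any split of the libraries gives this order. The part of sex was not tested by it. With sex as a term in the limma fit, added after seeing the data, the log2 change of Sox9 was -0.64 (Benjamini-Hochberg adjusted p = 0.271).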

How the data were processed

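Polyadenylated RNA of newborn mouse calvaria was prepared with a stranded kit, per the labels' protocols. The deposited values were taken as FPKM because Cufflinks, which writes FPKM, is among the tools named and the values are not whole. The submitters' processing notes name Cufflinks 2.2.1, SAMtools 0.1.19, Bowtie2 2.2.3, TopHat2 2.0.13 and the build mm10. Their options, annotation and strand use are not given in the sources used here. Gene lengths enter the values, so whole reads were not recovered. Median-of-ratios factors ran from 1.002 to 1.003, while summed FPKM ran from 521168 to 559624. The deposited values were therefore already level between libraries by the median of ratios, and that setting could hardly move a result. How the library scale was set is not given in the sources used here. Where it is the mapped total, an abundant gene can shift others.

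The 13180 genes averaging 1 FPKM or more were fitted in R 4.3.3 by limma 3.58.1, on log2(FPKM + 1) (eBayes with trend, group as the only term, two-sided), with Benjamini-Hochberg adjustment at 0.05. That scale understates changes of low genes. The procedure was tested on simulated data. Differences between genes were tested by exact permutation over libraries. The members and lists were chosen with earlier results of these data known, and the tests between members were added after seeing the data. Named genes are the trio, Col2a1, the Sox family, all targets past the threshold, the 3 smallest p in each cartilage list, the 2 most abundant markers of other cells and the 5 genes most like each member. Other targets, regulators and markers, and Matn1 for its sequence, were singled out after their values were seen. Protein sequences were not used here. Other settings were a pseudocount of 0.1, no filter or a filter at 5 FPKM, median-of-ratios and quantile scaling, eBayes without trend or robust, array weights, a replicate block, each library left out, and a sex term added after seeing the data.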

Additional observations from a re-analysis of the deposited data

How the results depend on the processing

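Sox9 kept its lower value and stayed short of the threshold in all 16 other fits, with log2 changes from -0.73 to -0.44 and adjusted p from 0.146 to 0.348 in limma. Leaving out each library gave -0.73 to -0.49. Sox5 stayed lower without passing in its 15 fits (-0.25 to -0.04, the nearer end with array weights and without control 2). Sox6 did not pass either, and its sign turned to -0.030 without library 3 labelled mutant, with a range of -0.030 to 0.092 over libraries left out. Sox5 and Sox6 fall below the filter at 5 FPKM and have no value there. Differences from Col2a1 and between members kept their direction under each setting run.

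The count of genes past the threshold was 80, and 50 with no filter, 183 with array weights, 25 with the replicate block, 43 with the sex term, and 15 to 43 with a library left out. The count of cartilage targets was 4, and 2 with no filter, and 0 to 7 with a library left out. With robust eBayes, the replicate block or the sex term it was 0 in limma, where the unadjusted counts were 13, 14 and 13. The cause was not tested. Libraries share only a replicate number. Their deviations from the group means correlated by 0.016, -0.071 and 0.015 between same-numbered libraries. No pairing showed in this measure over all genes, which cannot exclude one that touches a limited set of genes. In this balanced design the block leaves each log2 change as it is, -0.62 for Sox9. The limma adjusted p of Sox9 under the block was 0.293. Values near 1 FPKM, as for Sox5, cannot show small changes at an unknown depth.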
